A study of Homo sapiens with 24 samples.

Results

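The E2F and DP transcription factors were followed across 24 RNA libraries from human breast cancer cells, as the 10 rows E2F1, E2F2, E2F3, E2F4, E2F5, E2F6, E2F7, E2F8, TFDP1 and TFDP2 of a count table with 59609 named genes. All 10 had counts high enough to be tested in each line. Members were taken by gene symbol, and the rule uses no measured value.

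MDA-MB-231 and MDA-MB-453 are established breast cancer cell lines. Per the study's methods, MDA-MB-231 was kept in RPMI medium and MDA-MB-453 in DMEM. In comparisons between lines, line and medium therefore cannot be told apart. Each line was grown for 5 days in 4 conditions with 3 biological replicates each: the solvent DMSO, 500 nM of abemaciclib (an inhibitor of the cyclin-dependent kinases CDK4 and CDK6), 5 nM of fulvestrant (an oestrogen receptor degrader), or 500 nM abemaciclib with 5 nM fulvestrant, called the combination here. Libraries were 3′ mRNA libraries of 2873558 to 4158762 counts. The p-values below measure the spread between cultures of a line, not between tumours.

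The lines carried their own markers. ESR1, the oestrogen receptor, had 8 counts in all in each line, in 2 of 12 MDA-MB-231 libraries and 1 of 12 MDA-MB-453 libraries. PGR, the progesterone receptor, had 0 and 3 counts. The mesenchymal genes VIM, CD44 and AXL had 74489, 10892 and 24271 counts over the MDA-MB-231 libraries and 0 over those of MDA-MB-453. FOXA1, a luminal transcription factor, had 8229 counts over the MDA-MB-453 libraries and 183 over those of MDA-MB-231. PTPRC, a leukocyte gene, had 2 and 1 counts. Mitochondrial transcripts took 8.83% of the counts of DMSO libraries and 12.2% of those with abemaciclib for MDA-MB-231, against 15.2% and 23.8% for MDA-MB-453. Their part in the results below was not tested beyond a repeat without mitochondrial genes, which changed the call of TFDP2 in MDA-MB-231 under the combination and of E2F3 in the combination effect between lines, and no other member call.

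Most E2F proteins bind DNA as pairs with a DP partner, and in resting cells the retinoblastoma family of pocket proteins holds most of these in check. When cyclin D with CDK4 or CDK6 phosphorylates those pocket proteins, activator E2Fs are freed and the genes of DNA synthesis are switched on. Inhibitors of CDK4/6 act on this step.

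The promoters that hold a word of the E2F type are shown, since several E2F genes are themselves targets of the family. RefSeq windows (GRCh38.p14) were searched for 8 of the 10 members, with 11 windows in all. The 180 bases before the start of E2F1 (chr20:33686386-33686565, minus strand), E2F2 (chr1:23531234-23531413, minus), E2F3 (chr6:20401699-20401878, plus), E2F7 (chr12:77065570-77065749, minus) and TFDP1 (chr13:113584573-113584752, plus) are printed 5′ to 3′, with capitals for a match, on either strand, to the word TTCCCGC, the word TTCGCGC, the word TTGCCGC or the word TTGGCGC.
E2F1: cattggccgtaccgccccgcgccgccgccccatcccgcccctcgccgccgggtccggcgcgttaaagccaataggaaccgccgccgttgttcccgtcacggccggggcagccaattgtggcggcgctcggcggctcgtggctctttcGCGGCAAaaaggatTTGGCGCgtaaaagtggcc
E2F2: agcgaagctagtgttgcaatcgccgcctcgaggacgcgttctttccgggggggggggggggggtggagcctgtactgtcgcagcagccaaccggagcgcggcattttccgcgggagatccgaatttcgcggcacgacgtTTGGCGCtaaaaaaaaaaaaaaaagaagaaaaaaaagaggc
E2F3: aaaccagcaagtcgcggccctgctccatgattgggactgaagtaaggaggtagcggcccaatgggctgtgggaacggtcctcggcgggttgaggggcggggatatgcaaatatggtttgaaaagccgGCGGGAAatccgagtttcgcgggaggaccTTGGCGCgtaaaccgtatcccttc
E2F7: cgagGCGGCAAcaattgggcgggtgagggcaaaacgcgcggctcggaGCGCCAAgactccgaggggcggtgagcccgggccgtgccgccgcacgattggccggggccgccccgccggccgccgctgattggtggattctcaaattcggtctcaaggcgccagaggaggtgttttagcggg
TFDP1: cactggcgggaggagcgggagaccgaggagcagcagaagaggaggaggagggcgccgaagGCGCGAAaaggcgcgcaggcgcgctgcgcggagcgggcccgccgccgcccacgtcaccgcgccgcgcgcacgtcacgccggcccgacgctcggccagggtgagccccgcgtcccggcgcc
The printed windows of E2F1, E2F3 and E2F7 each held 2 such words and those of E2F2 and TFDP1 each held 1. The words did not overlap. Over all 35116 windows in the table, 8.495% held a word in the 180 bases before the start. The windows of E2F4, E2F6 and TFDP2 held none of these words. E2F5 and E2F8 were not among the members searched, so nothing is said about their promoters. A match is a run of letters and was not tested for binding.

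E2F1 (chromosome 20, 33675477 to 33686385, GRCh38) encodes the activator best known for entry into S phase. Under DMSO its level was 37.9, 41.0 and 54.3 CPM (counts relative to a library size corrected with edgeR's TMM factors) in MDA-MB-231 cells. In MDA-MB-453 cells it was 103, 107 and 123 CPM. Abemaciclib gave 23.7, 22.3 and 29.1 CPM for the first line and 12.0, 15.4 and 18.1 for the second. No abemaciclib library overlapped the DMSO libraries of its line, and MDA-MB-453 went from the higher line to the lower. The log2 fold change was -0.82 for MDA-MB-231 (SE 0.18, adjusted p = 0.000507). For MDA-MB-453 it was -2.89 (SE 0.16, adjusted p = 9.33e-20), and the fall was 2.06 log2 units deeper in MDA-MB-453 (adjusted p = 6.86e-09). In bulk samples, fewer cycling cells and less RNA per cell cannot be told apart.

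Across the 8 groups E2F1 was ordered from MDA-MB-453 with fulvestrant (mean 114 CPM) and DMSO (111), through MDA-MB-231 with fulvestrant (50.0) and DMSO (44.4), abemaciclib (25.1) and the combination (23.8), to MDA-MB-453 with abemaciclib (15.2) and the combination (13.4). Neighbours within a line under DMSO and fulvestrant, and under abemaciclib and the combination, were not told apart by the test.

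E2F2 (chromosome 1, 23506438 to 23531233), another activator, moved farthest among the members with counts in every group. MDA-MB-231 libraries had 63, 40 and 54 counts with DMSO and 13, 15 and 13 with abemaciclib. MDA-MB-453 libraries had 223, 198 and 169 with DMSO and 1, 1 and 3 with abemaciclib. Every abemaciclib library lay below every DMSO library of its line. The log2 fold change was -1.99 for MDA-MB-231 (SE 0.36, adjusted p = 2e-05). For MDA-MB-453 it was -6.73 (adjusted p = 3.68e-20), a difference of 4.74 (adjusted p = 4.26e-08). The MDA-MB-453 value rests on 5 counts over the abemaciclib group, so its size is known only roughly.

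E2F3 (chromosome 6, 20401879 to 20493714) is the third activator and was called lower in neither line. Its mean in MDA-MB-231 cells was 99.9 CPM with DMSO and 89.2 with abemaciclib, and the groups overlapped (log2 fold change -0.16, adjusted p = 0.34). In MDA-MB-453 it was 25.2, 22.3 and 22.3 under DMSO and 28.9, 47.9 and 32.8 under abemaciclib. All 3 treated libraries were above the DMSO libraries, with replicate 2 far above the others. It rose by 0.65 on the log2 scale (SE 0.20, adjusted p = 0.00986), a call lost without that library (0.40, adjusted p = 0.167).

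E2F1 and E2F2 were also lower under the combination. E2F1 was 25.8, 25.3 and 20.2 CPM in MDA-MB-231 cells (log2 fold change against DMSO -0.90, adjusted p = 0.000141). In MDA-MB-453 cells it was 14.4, 12.6 and 13.2 (-3.04, adjusted p = 2.75e-20). E2F2 had 13, 22 and 8 counts and 0, 4 and 3 counts, with log2 fold changes of -2.11 (adjusted p = 6.6e-06) and -6.28 (adjusted p = 6.61e-20). Neither gene overlapped with DMSO. E2F3 was 36.1, 33.4 and 36.1 CPM in MDA-MB-453 cells, above every DMSO library, and rose by 0.61 (adjusted p = 0.0144), a call lost without DMSO replicate 2 (adjusted p = 0.0522).

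**Figure D1:**
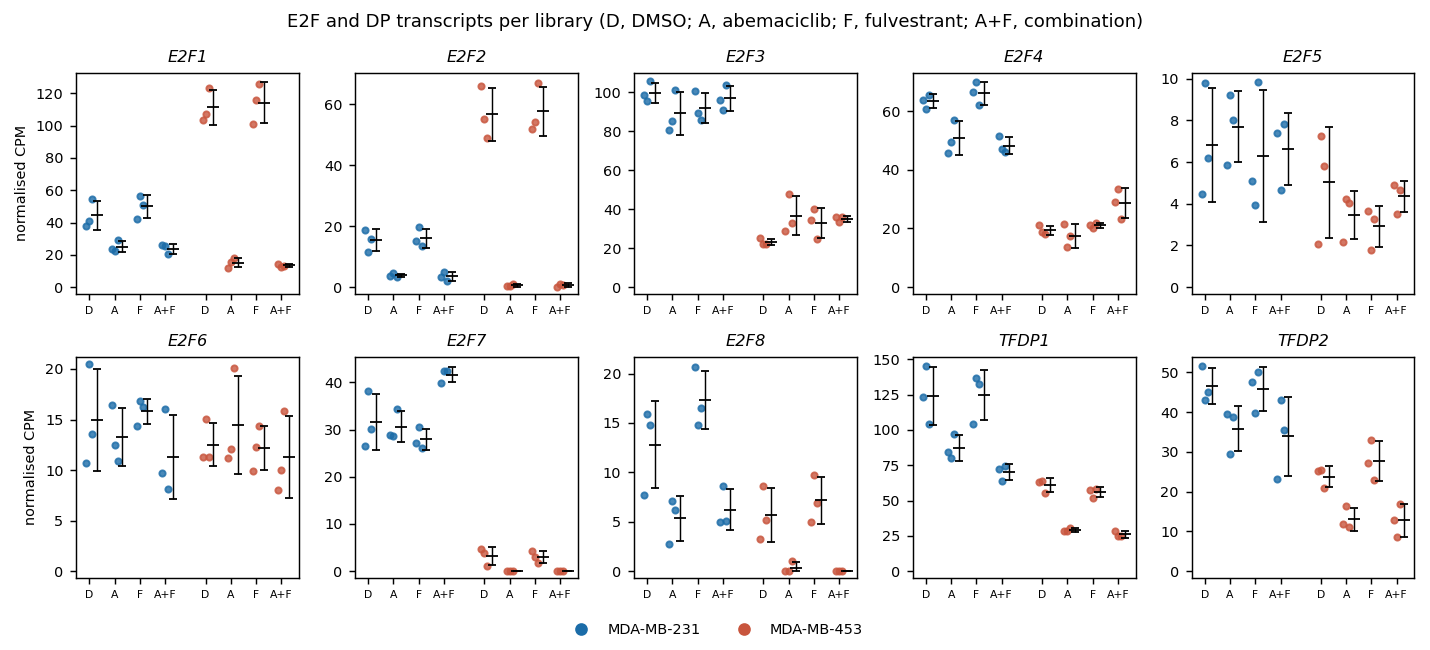
TMM-normalised CPM (vertical axes, from 0) of the 10 members in each of the 24 libraries. Points are libraries, bars the group mean and SD. In MDA-MB-453 E2F1 and E2F2 drop from 111 and 56.7 CPM under DMSO to 15.2 and 0.524 under abemaciclib, while E2F3 goes from 23.3 to 36.5.

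E2F4 and E2F5 encode E2Fs that mostly work as repressors with pocket proteins. E2F4 was not called under abemaciclib in either line, with log2 fold changes of -0.32 (MDA-MB-231, adjusted p = 0.0794) and -0.14 (MDA-MB-453, adjusted p = 0.683). The first passed without abemaciclib replicate 3 (adjusted p = 0.0426). Under the combination its changes had opposite signs in the lines. MDA-MB-231 cells had 63.8, 60.9 and 65.5 CPM with DMSO and 51.6, 47.1 and 46.0 with the combination. MDA-MB-453 cells had 21.1, 18.9 and 18.0 with DMSO and 29.1, 33.4 and 23.3 with the combination. In both lines the treated libraries did not overlap the DMSO ones, below them in MDA-MB-231 and above them in MDA-MB-453. E2F4 fell by 0.39 in the former (SE 0.14, adjusted p = 0.0264) and rose by 0.58 in the latter (SE 0.22, adjusted p = 0.034), and the effects differed by 0.96 (adjusted p = 0.00256), which held under all 29 alternatives. The call within each line was lost under 5 and 6 of 18 alternatives (adjusted p up to 0.101 and 0.173).

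E2F5 had 32 to 82 counts per group and was not called in any comparison. Its exons share 997 bases with RBIS on the other strand, which had 6360 counts over all libraries, and the sources used here do not say whether counting used strand. E2F6, which encodes a repressor that works without pocket proteins, had 118 to 167 counts per group and was not called either. Its log2 fold change with abemaciclib was -0.17 for MDA-MB-231 (95% interval -0.74 to 0.41) and 0.19 for MDA-MB-453 (-0.41 to 0.79). Under DMSO these were also the members that were not called between the lines.

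E2F7 and E2F8 encode atypical E2Fs, which bind without a DP partner and repress targets of the activators. E2F7 (chromosome 12, 77021248 to 77065569) had 89, 132 and 102 counts under DMSO and 103, 96 and 129 with abemaciclib in MDA-MB-231 cells, and these overlap. MDA-MB-453 cells had 16, 14 and 4 counts under DMSO and 0 in all 3 abemaciclib libraries and all 3 combination libraries. That is at least 10.9-fold lower with abemaciclib and at least 11.0-fold lower with the combination, taking 3 counts over the group as the floor. The difference in effect between the lines passed the test for abemaciclib (adjusted p = 1.53e-05).

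In MDA-MB-231 the combination gave 151, 183 and 168 E2F7 counts, above each DMSO library. The log2 fold change against DMSO was 0.40 (SE 0.18, adjusted p = 0.0722) and did not pass. It passed without DMSO replicate 2 (0.56, adjusted p = 0.0299) and with only the groups compared in the fit (0.42, adjusted p = 0.0451). The combination also passed against fulvestrant, with 96, 109 and 90 counts (0.58, SE 0.18, adjusted p = 0.00874, all 18 alternatives). Against abemaciclib it was 0.44 (adjusted p = 0.362).

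E2F8 (chromosome 11, 19224063 to 19241620) had 26, 55 and 50 counts with DMSO in MDA-MB-231 cells and 10, 24 and 23 with abemaciclib, all below them. It fell by 1.25 on the log2 scale (SE 0.36, adjusted p = 0.005), which was lost without abemaciclib replicate 1 (adjusted p = 0.0551). In MDA-MB-453 counts went from 11, 31 and 18 to 0, 0 and 3 with abemaciclib and to 0, 0 and 0 with the combination. The ratio was 19.3-fold lower with abemaciclib (95% counting interval 6.29 to 96.1) and at least 19.4-fold lower with the combination. In MDA-MB-231 cells the combination gave 19, 37 and 20 counts, of which the second lay among the DMSO libraries (log2 fold change -1.03, adjusted p = 0.0166). That call was lost without DMSO replicate 2 (adjusted p = 0.0935) or replicate 3 (0.0751), and without combination replicate 1 (0.0723) or replicate 3 (0.0736). Intervals and floors cover counting error only.

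TFDP1 and TFDP2 encode the DP partners. TFDP1 (chromosome 13, 113584721 to 113641473) was 123, 145 and 104 CPM with DMSO and 84.1, 80.3 and 97.4 with abemaciclib in MDA-MB-231 cells. MDA-MB-453 cells had 63.5, 64.0 and 55.0 with DMSO and 28.6, 28.3 and 30.5 with abemaciclib. The groups did not overlap in either line. It fell by 0.51 (SE 0.13, adjusted p = 0.00212) and by 1.07 (SE 0.16, adjusted p = 3.54e-07) respectively, and the effects differed by -0.55 (adjusted p = 0.0398), a call kept under 21 of 29 alternatives. With the combination it was 72.5, 63.8 and 74.4 CPM in MDA-MB-231 cells (-0.82, adjusted p = 2.73e-06) and 28.8, 24.6 and 24.9 in MDA-MB-453 cells (-1.21, adjusted p = 2.82e-08).

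TFDP2 was 25.2, 25.3 and 20.8 CPM under DMSO and 11.8, 16.3 and 11.0 under abemaciclib in MDA-MB-453, with no overlap (log2 fold change -0.87, adjusted p = 0.00484). The change in MDA-MB-231 cells was -0.37 (adjusted p = 0.114). With the combination TFDP2 was 13.0, 8.50 and 16.9 CPM in MDA-MB-453 cells (-0.88, adjusted p = 0.0045), a call lost without combination replicate 2 (-0.65, adjusted p = 0.0591).

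**Figure D2:**
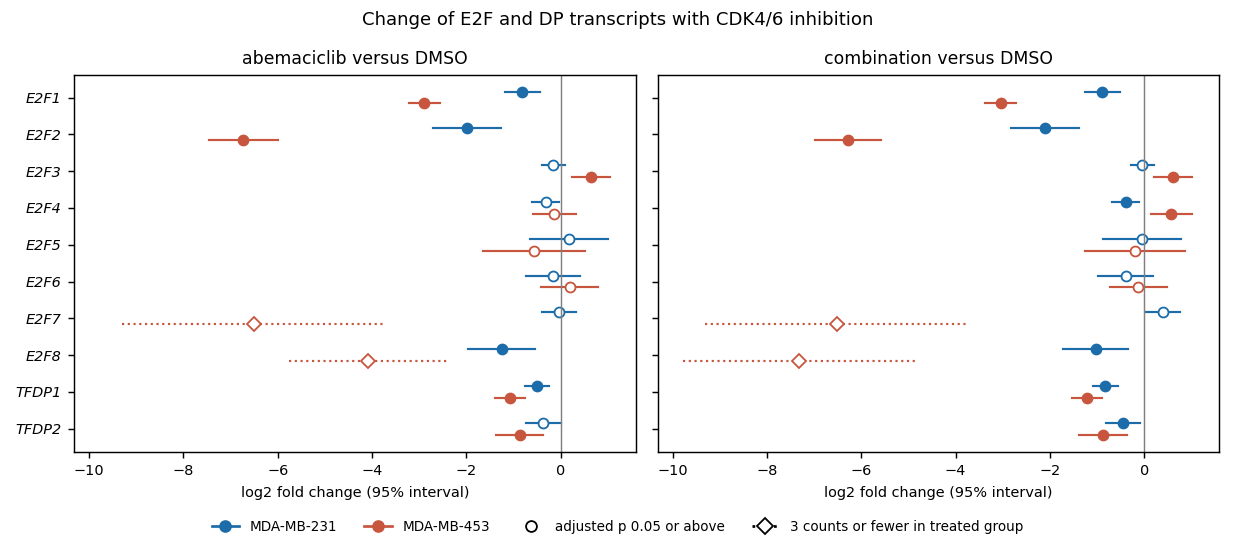
Log2 fold change (horizontal axes) with 95% intervals of each member under abemaciclib and the combination. For E2F2 in MDA-MB-453 the intervals rest on 5 and 7 treated counts and can be too narrow. Filled points had adjusted p below 0.05, and open diamonds mark treated groups with 3 counts or fewer, where the fitted value depends on the prior count. E2F1, E2F2 and TFDP1 lie left of 0 in both lines and panels, and E2F3 lies right of 0 in MDA-MB-453.

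Under abemaciclib, 4 of 10 members were called in MDA-MB-231, all lower, against 33.7% of the 11314 genes tested, or 16.9% lower. For MDA-MB-453, 7 of 10 were called, 1 higher and 6 lower, against 36.0% of 11080 genes, 16.6% higher and 19.4% lower. The median log2 fold change of the members was -0.34 and -0.97, beside -0.00053 and -0.0019 over all genes tested. The members' median in MDA-MB-453 lies between TFDP1 and TFDP2 and does not rest on the fitted values of E2F7 and E2F8. The combination lowered 6 of 10 members in MDA-MB-231 cells, against 35.4% of all genes called and 18.3% lower. For MDA-MB-453 it called 8, 2 higher and 6 lower, against 37.6%, 17.6% and 20.0%. The added members in the first line were E2F4 and TFDP2, of which TFDP2 (adjusted p = 0.0483) kept its call under 6 of 18 alternatives.

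Fulvestrant alone moved no member past the test. In MDA-MB-231, 0 members were called by edgeR and 0 by DESeq2, and 0% of all genes were called. An unadjusted p below 0.05 was found for 0 members and 7.06% of genes. In MDA-MB-453, 0 members were called by edgeR and 0 by DESeq2, against 1.41% of genes called. There 1 member and 13.6% of genes had an unadjusted p below 0.05. That member was E2F3, with 132, 157 and 82 counts against 85, 80 and 77 under DMSO (log2 fold change 0.52, adjusted p = 0.197). Its replicate 3 lay among the DMSO libraries, and without it the change passed (0.70, adjusted p = 0.0265).

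Adding fulvestrant to abemaciclib called 0 members by edgeR and by DESeq2 in either line, against 0.0265% and 2.46% of genes called. With edgeR 2 MDA-MB-231 members and 1 MDA-MB-453 member had an unadjusted p below 0.05, as had 10.1% and 15.0% of genes. The pair were E2F7 (0.44) and TFDP1 (-0.32, adjusted p = 0.397), and the MDA-MB-453 member was E2F4 (0.72, SE 0.22, adjusted p = 0.0726), which passed without abemaciclib replicate 1 (0.90, adjusted p = 0.0275). The interaction of the drugs called 0 members in either line by edgeR and by DESeq2, against 0.124% and 3.80% of genes called. By edgeR 1 and 0 members, and 11.5% and 15.8% of genes, had an unadjusted p below 0.05. The combination against fulvestrant called 6 MDA-MB-231 members, E2F7 higher and 5 lower (36.1% of genes, 17.6% higher and 18.5% lower), and 6 MDA-MB-453 members, all lower (36.6% of genes, 19.4% lower).

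Between the untreated lines 8 of 10 members differed, against 69.8% of 12750 genes, 34.3% higher in MDA-MB-453 and 35.6% lower. E2F1 and E2F2 were 2.51-fold and 3.67-fold higher in MDA-MB-453. E2F3, E2F4, E2F7, E2F8, TFDP1 and TFDP2 were lower there, from -0.97 for TFDP2 to -3.26 for E2F7 on the log2 scale. E2F8 (-1.16, adjusted p = 0.0131) lost its call without MDA-MB-231 DMSO replicate 2 (adjusted p = 0.0631) and without MDA-MB-453 DMSO replicate 1 (0.0834).

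The effect of abemaciclib differed between the lines for 6 of 10 members, against 20.7% of genes, 7.72% higher and 13.0% lower. E2F1, E2F2, E2F7, E2F8 and TFDP1 had a more negative effect in MDA-MB-453 and E2F3 went the other way (0.81, adjusted p = 0.00699, and adjusted p = 0.14 without MDA-MB-453 abemaciclib replicate 2). The call for E2F8 (adjusted p = 0.0189) was lost under 4 of 29 alternatives, each without 1 library (adjusted p up to 0.0749). The effect of the combination differed for 6 members, E2F1, E2F2, E2F3, E2F4, E2F7 and E2F8, against 17.7% of genes, 6.16% higher and 11.6% lower, and the call for E2F3 was kept under 10 of 29 alternatives. The effect of fulvestrant differed for 0 members by edgeR and by DESeq2, against 1.06% of genes. By edgeR 1 member and 13.6% of genes had an unadjusted p below 0.05.

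**Figure D3:**
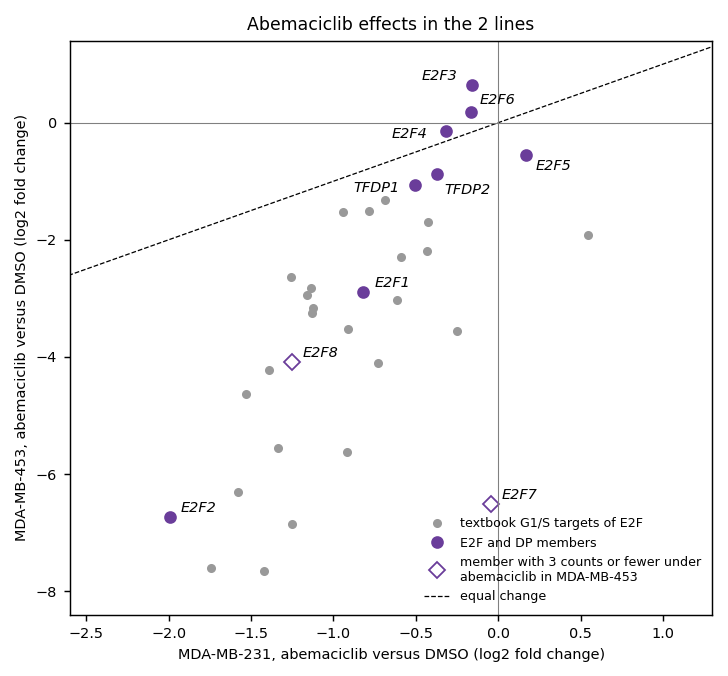
Abemaciclib effect in MDA-MB-231 (horizontal) and in MDA-MB-453 (vertical), both as log2 fold change, with axes of different range. E2F7 lies near 0 in MDA-MB-231, where its change was -0.04, while E2F2 lies farthest left, at -1.99.

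The genes around the family were read from 7 lists, which share some genes. RBL1, MYBL2, CCNE1, CCNE2 and CCNA2 are in the list of textbook G1/S targets and also in another list. Their changes are counted in both, so the list counts are not independent. Over all genes tested, 16.9% rose and 16.9% fell with abemaciclib in MDA-MB-231, and 16.6% rose and 19.4% fell in MDA-MB-453, and the counts of each list stand beside these shares. Of 24 textbook G1/S targets of E2F, 21 fell and 0 rose with abemaciclib in MDA-MB-231 cells (median log2 fold change -1.03) and all 24 fell in MDA-MB-453 cells (median -3.21). RRM2, a ribonucleotide reductase subunit, had a mean of 452 CPM with DMSO and 135 with abemaciclib in the former, 199 and 0.993 in the latter. CCNE1, which encodes cyclin E1, fell by 1.92 in MDA-MB-453 and was at 0.54 in MDA-MB-231 without a call.

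Of the RB pathway kinases, cyclins and inhibitors, 12 of 15 were tested for MDA-MB-231 and 13 for MDA-MB-453. Of the 12, 1 rose and 3 fell (median -0.25), and of the 13, 1 rose and 8 fell (median -0.72), against 16.9% of all genes in each direction for the former line and 16.6% higher and 19.4% lower for the latter. CCND1, which encodes cyclin D1, rose in both, by 0.81 (adjusted p = 2.27e-10) and 0.53 (adjusted p = 2.57e-07). CCND3, which encodes cyclin D3, fell in both, with log2 fold changes of -0.57 (adjusted p = 0.00488) and -0.72 (adjusted p = 2.86e-05). CDKN2A and CDKN2B, which encode CDK4/6 inhibitors, had 0 counts in MDA-MB-231 libraries, and CCND2, which encodes cyclin D2, had 0 in both lines. CCNE2, which encodes cyclin E2, had 53, 50 and 59 counts under DMSO and 0, 0 and 1 under abemaciclib in MDA-MB-453. CDKN2C, which encodes the CDK4/6 inhibitor p18, had 80, 67 and 64 and then 0, 4 and 4.

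Of 9 tested pocket protein and DREAM genes, 1 rose and 5 fell in each line (medians -0.91 and -0.53). RBL2, which encodes the pocket protein p130, rose by 1.35 (adjusted p = 0.0159) and 0.67 (adjusted p = 0.0102), and RBL1, which encodes p107, fell by 1.16 and 2.95. MYBL2, which encodes the B-MYB partner of MuvB, had 953, 1074 and 888 counts under DMSO and 391, 384 and 357 under abemaciclib in MDA-MB-231, and 1290, 1401 and 1344 and then 9, 4 and 6 in MDA-MB-453. The drop of MYBL2 was 6.22 log2 units deeper in the second line (adjusted p = 1.04e-25). LIN37, another subunit, had 2 counts over the MDA-MB-231 libraries and 0 over those of MDA-MB-453. Of 8 genes of E2F protein turnover, 0 rose and 6 fell in each line (medians -0.98 and -1.97), among them SKP2 and CCNF, subunits of ubiquitin ligases.

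E2F6 partners fell in 6 of 11 cases in MDA-MB-231 (0 rose, median -0.64) and in MDA-MB-453 2 rose and 2 fell of 10 tested (median -0.19), the latter near the shares of all genes, 16.6% higher and 19.4% lower. WDR5, a chromatin adaptor, fell in both, by 0.97 and 1.19. MGA, a DNA-binding partner, rose by 1.67 in MDA-MB-453 (SE 0.68, adjusted p = 0.048), where it had 130 counts over the 12 libraries. Calls of list genes were not repeated under the alternatives. Of the 9 tested apoptosis genes bound by E2F1, 0 rose and 1 fell in MDA-MB-231 (median -0.21), and 1 rose and 2 fell in MDA-MB-453 (median 0.01), beside shares over all genes of 16.9% in each direction and of 16.6% higher and 19.4% lower. Neither is a result about the list. In MDA-MB-453 TP53INP1 rose by 2.19 (adjusted p = 4.55e-11) and TP73 fell by 2.04 (adjusted p = 0.000868). Of 10 germline genes repressed by E2F6, 0 were tested for MDA-MB-231 and 1 for MDA-MB-453. That gene, SMC1B, a meiotic cohesin subunit, went from 86.3, 77.3 and 76.7 CPM under DMSO to 10.2, 9.94 and 13.1 under abemaciclib (log2 fold change -2.87, adjusted p = 1.38e-17).

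**Figure D4:**
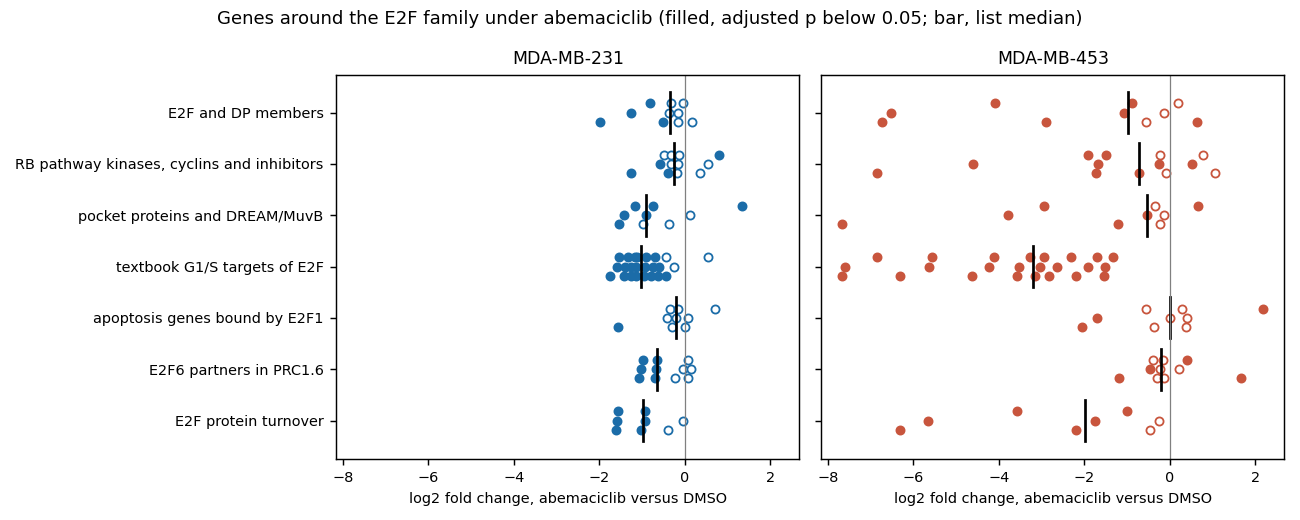
Abemaciclib against DMSO for the members and 6 lists, as log2 fold change on a shared axis, with filled points for adjusted p below 0.05 and bars for list medians. The G1/S targets have medians of -1.03 (MDA-MB-231) and -3.21 (MDA-MB-453).

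By Pearson's r of log2 CPM over 24 libraries, centred in each line, the genes most like E2F1 were MT2A (0.987), PHF19 and RRM2, and most like E2F2 were DLGAP5 (0.987), MT2A and CDKN3. Those for TFDP1 were CDC20 (0.956), UBE2T and LMNB1. The libraries share the 4 treatments and are not independent, so r is given as a description with no p. E2F7 was most like CKAP2L at 0.926, but within MDA-MB-231 r was -0.094 and within MDA-MB-453 0.957. E2F8 was most like ANP32E (0.947), TBL1X and E2F1 (0.946), and TFDP2 like HSPA4L (0.901), DNMT1 and BARD1. E2F3 was most like CHD9 (0.842), ARID4B and ANKRD17, and E2F4 like ATF4 (0.797), MAT2A and FAM168B.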

How the data were processed

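RNA from 24 cultures was read as 3′ mRNA libraries, and per the labels the authors aligned reads to hg38 with STAR and made the deposited raw counts with featureCounts. 1 row without a gene name held 0 counts and was left out, leaving 59609 genes. Depth was 2873558 to 4158762 counts, so 3 counts over a group of 3 were worth 0.255 to 0.3 CPM. edgeR 4.0.16 (R 4.3.3) quasi-likelihood tests with TMM scaling and the default low-count filter were fitted per line on 12 libraries and on 24 libraries between lines, with Benjamini-Hochberg adjustment over all genes tested and a threshold of 0.05. Biological variation was 13.4% and 12.6%. DESeq2 1.42.0, another scaling, no filter, a replicate block, no mitochondrial genes, only the groups compared, and leaving out each library were alternatives. Replicates differed by more than sampling noise (chi-square per degree of freedom 2.64 to 8.65). Members, lists, named genes and promoter words were chosen with earlier results of these data known. Named were the members and the 3 genes most like each called member among genes of at least 10 CPM in both lines. Also named were up to 4 called genes a list by size of change, and list genes at 0 outside the germline list. Positions are from GENCODE on GRCh38, promoters from RefSeq. E2F3, E2F4 and E2F6 pseudogenes and TFDP3 had 0 counts. 3′ counts do not separate isoforms, and levels were compared within a gene.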

Additional observations from a re-analysis of the deposited data

Results flagged for a closer look

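The effect of abemaciclib differed between the lines for 6 members, in a test of the difference itself. MDA-MB-453 minus MDA-MB-231, the log2 differences were -2.06 for E2F1, -4.74 for E2F2, 0.81 for E2F3, -6.50 for E2F7, -2.84 for E2F8 and -0.55 for TFDP1. The effect of the combination differed for 6, with -2.16 for E2F1, -4.19 for E2F2, 0.64 for E2F3, 0.96 for E2F4, -6.95 for E2F7 and -6.32 for E2F8. Values for E2F7 and E2F8 rest on groups of 3 counts or fewer in MDA-MB-453, and their size depends on the prior count. The cause of these differences was not tested.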

How the results depend on the processing

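Over 3294 alternative values for single members, 3219 stayed on the same side of the threshold, 65 lost the call and 10 gained it. The sign changed for 0 values that were called and for 101 that were not. Counts of called members moved by over 1.5 times only where a library was left out. In MDA-MB-231 the combination against DMSO gave 3 to 6 called members, the lowest when DMSO replicate 3 or combination replicate 3 was left out. For MDA-MB-453 the combination against abemaciclib and fulvestrant against DMSO each gave 0 to 1, and the fulvestrant effect between the lines gave 0 to 1. Replicate numbers did not pair the samples: over 36 same-numbered pairs the correlation of deviations ran from -0.158 to 0.0561. With a replicate block, 158 of 160 member values kept their call and 2 lost it, TFDP2 in MDA-MB-231 under the combination (adjusted p = 0.0612, and 0.011 to 0.355 over all alternatives) and TFDP1 in the abemaciclib effect between the lines (adjusted p = 0.052, and 0.00731 to 0.0955). At this depth E2F5, and in MDA-MB-453 E2F7 and E2F8, have few counts, and their changes are known only within wide intervals. E2F2 also had few counts in MDA-MB-453 under abemaciclib and the combination, 5 and 7 over the groups.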

Other observations

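RYBP, which encodes a partner of E2F6 in a repressor complex, moved in opposite directions in the lines. It was 76.1, 64.3 and 67.0 CPM under DMSO and 40.8, 41.1 and 50.7 under abemaciclib in MDA-MB-231, and 151, 170 and 153 and then 192, 199 and 242 in MDA-MB-453. The groups did not overlap in either line, and the log2 fold changes of -0.64 and 0.41 (adjusted p = 0.000576 and 0.00139) differed by 1.06 (SE 0.17, adjusted p = 5.96e-06). LIN52, a subunit of the MuvB core, fell by 1.53 in MDA-MB-231 and was at -0.23 in MDA-MB-453 without a call, a difference of 1.31 (SE 0.40, adjusted p = 0.0132).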
